A study of Mus musculus with 6 samples.

Results

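Tight junctions and desmosomes are the contacts that seal and rivet epithelial sheets, and their genes were followed here in mouse embryonic stem cells (ESCs) kept in 2 media. The genes were chosen by symbol: every claudin with a plain number, the Tjp scaffold genes, the desmogleins (Dsg), desmocollins (Dsc) and plakophilins (Pkp), and Ocln, F11r, Marveld2, Marveld3, Jup, Dsp, Cgn, Crb3 and Pard3. This gave 48 of the 53927 gene symbols in the deposited tables, 33 of tight junctions and cell polarity and 15 of desmosomes. Each medium had 3 libraries of total RNA, and both media were serum-free N2B27 with the MEK inhibitor PD0325901 at 1 µM. The 2i medium added CHIR-99021, which inhibits both GSK3 kinases, at 3 µM, and the BRD0705/PD03 medium added BRD0705, a GSK3 alpha-selective inhibitor, at 8 µM. All samples carry the labels WT and E14, a male ESC line, whereas the growth protocol describes B6D2F1 ESCs that were derived and grown on feeder cells in each medium, so the source of the cells is not settled. The labels do not say whether the libraries of a group came from separate cultures, so the tests measure the spread between libraries, which may be technical.

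In a tight junction, claudins and the tetraspan proteins occludin, tricellulin and MARVELD3 meet their partners on the next cell, and the Tjp (ZO) scaffolds and cingulin tie them to actin. In a desmosome, desmogleins and desmocollins are the cadherins that bridge the cells, and plakoglobin, plakophilins and desmoplakin join them to intermediate filaments. ESCs grow as compact, epithelium-like colonies, and GSK3 acts on beta-catenin, a relative of plakoglobin that sits in the neighbouring adherens junction.

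Library totals were 16968959 to 51180228 counts, and values below are CPM, counts scaled for depth. Means are given with their SD over 3 libraries, BRD0705/PD03 before 2i. A positive log2 fold change means a higher level in BRD0705/PD03, and its error is the standard error of the fit. Of the 48 genes, 28 had enough counts to be tested with edgeR. Among these, the BRD0705/PD03 libraries had 16 genes higher and 7 lower (adjusted p below 0.05), and 5 were not called. Over all 20422 tested genes 61.4% were called, 30.1% as higher and 31.4% as lower, so a call by itself was common. Calls of 2-fold or more numbered 10 higher and 5 lower, where all tested genes gave 10.9% and 10.3%. The median log2 fold change was 0.24 for the 28 genes and 0.0003 for all tested genes. Groups did not overlap for 25 of the 28 genes, and for 66.0% of all tested genes. The filter let in Cldn1, Cldn20 and Marveld3 through the BRD0705/PD03 libraries alone and Dsg1b through the 2i libraries alone, so these 4 had to differ to be tested. No p-value is given for them, and the counts and median, which include them, are a description. Cldn19 was above the filter's cutoff in 3 libraries of 2i and 1 of BRD0705/PD03. It too passed through the medium where it was higher, and gets no p-value. Cldn5 and Dsc2 were above the cutoff in 3 libraries of BRD0705/PD03 and 2 of 2i. For them the filter leaned toward BRD0705/PD03, which their p-values do not allow for.

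Pluripotency was checked with 6 marker genes, which summed to 2028 to 2119 CPM in BRD0705/PD03 and 2197 to 2330 CPM in 2i. Of these, Sall4, Utf1 and Tdgf1 were higher in BRD0705/PD03, Utf1 by 2.66-fold, and Nanog and Pou5f1 were lower, Nanog at 324 ± 20.3 against 625 ± 8.52 CPM, 1.93-fold. Of 12 fibroblast markers, 12 were higher in BRD0705/PD03, with sums of 897 to 1364 CPM against 521 to 554 CPM. Their part in the results below was not tested, and in bulk RNA a change in the number of cells of a type and a change in RNA per cell cannot be told apart. Of 6 markers of stratified epithelium, a tissue rich in desmosomes, Krt10 passed the filter and was not called, at 1.19 ± 0.207 against 0.886 ± 0.156 CPM. The other markers, Krt5, Krt14, Trp63, Krt1 and Ivl, were below the filter, with Krt14 and Ivl higher in every BRD0705/PD03 library than in any of 2i (0.112 ± 0.0524 against 0.0198 ± 0.0197 CPM and 0.291 ± 0.0310 against 0.145 ± 0.0744 CPM) and the rest overlapping. The sums of that list were 1.36 to 1.85 CPM in BRD0705/PD03 and 1.18 to 1.25 CPM in 2i. No marker of these lists was at 0 in every library.

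The sequence upstream of the start site is shown for 3 called genes, of those with a promoter entry the ones with the largest changes at a mean of at least 5 CPM: Cldn6 and Cgn, which were higher in BRD0705/PD03, and Ocln, which was lower. Windows are from RefSeq on GRCm38.p6, read 5′ to 3′ on the gene's strand and ended where the GENCODE gene begins. Capitals mark CG dinucleotides, the sites of DNA methylation. They lie at chr17:23679115-23679248, plus strand, at chr3:94786493-94786732, minus strand, and at chr13:100552719-100552968, minus strand.
Cldn6: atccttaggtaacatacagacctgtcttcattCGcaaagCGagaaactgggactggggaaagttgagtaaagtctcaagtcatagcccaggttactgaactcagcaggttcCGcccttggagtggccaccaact
Cgn: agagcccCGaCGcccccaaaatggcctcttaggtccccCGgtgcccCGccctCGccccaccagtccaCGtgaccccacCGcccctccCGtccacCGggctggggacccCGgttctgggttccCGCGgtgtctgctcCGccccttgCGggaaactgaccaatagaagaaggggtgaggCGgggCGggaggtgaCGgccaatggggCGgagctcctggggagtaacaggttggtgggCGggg
Ocln: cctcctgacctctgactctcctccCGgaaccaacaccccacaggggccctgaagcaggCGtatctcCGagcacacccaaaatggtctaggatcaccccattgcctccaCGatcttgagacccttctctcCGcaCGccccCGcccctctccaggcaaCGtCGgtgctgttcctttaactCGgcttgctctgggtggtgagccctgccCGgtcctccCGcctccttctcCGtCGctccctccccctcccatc
The Cldn6 stretch holds 3 CG in 134 bases, at 49.3% G and C. The Cgn stretch holds 19 in 240 bases, at 70.8%, and that of Ocln 14 in 250 bases, at 64% G and C. Over the 250 bases before the RefSeq start, 30 of the 48 genes had an entry. The 21 of these that were tested had a median of 12 CG, and the 9 below the filter had a median of 4. The median was 6 over 27025 windows of that length, which were not limited to tested genes, so the sets are unlike. Higher and lower genes overlapped in this, with 1 to 22 CG in 13 higher genes and 3 to 14 in 4 lower genes. The E-box CACCTG, the site bound by Snail and Zeb repressors, was searched on both strands and found in 5 of the 30 windows (16.7%, against 17.1% of all windows), namely Cldn4, Cldn6, Crb3, F11r and Tjp3. The Cldn6 match lies past the stretch shown, in bases that GENCODE annotates as exon. CTTTGA, the core that TCF/LEF factors bind, was found in 2 of the 30 windows (6.67%, against 14% of all windows), those of Cldn17 and Cldn18, neither of which passed the filter on low counts.

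**Figure D1:**
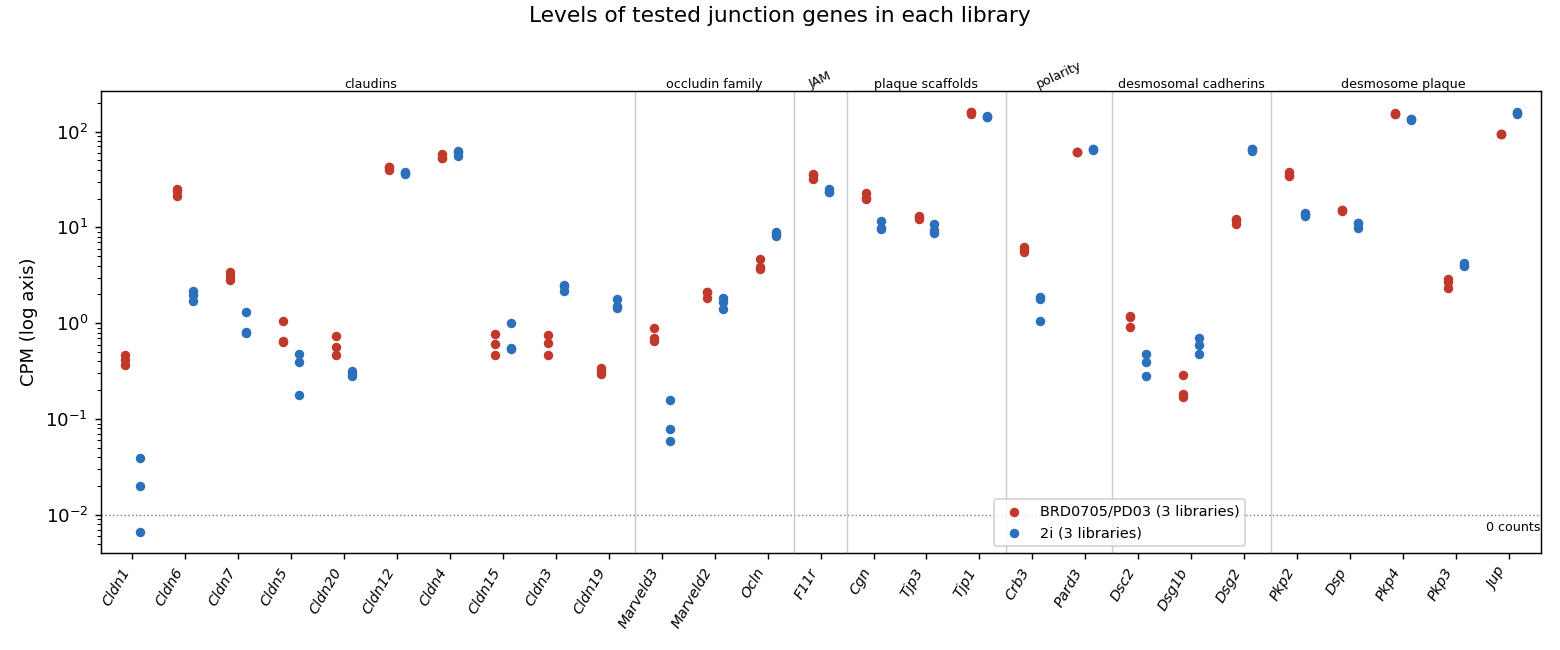
Level of 27 of the 28 tested genes in each library, in CPM on a log axis, with red points for the 3 BRD0705/PD03 libraries and blue points for the 3 2i libraries; the dotted line sets off a library with 0 counts. Cldn6 and Dsg2 show the widest gaps among genes above 10 CPM in either medium, in opposite directions.

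Claudins, the family with the most tested genes, had the widest range of changes, from log2 4.05 (Cldn1) to -2.27 (Cldn19). A range grows with the number of genes, and both of these passed the filter through the medium where they were higher. Without them the claudins ran from log2 3.54 (Cldn6) to -1.94 (Cldn3). Of 23 claudins, 10 were tested, 6 were higher (Cldn1 and Cldn20, let in by BRD0705/PD03 alone, among them), 2 were lower and 2 were not called. Cldn6, a claudin of early embryonic epithelia and pluripotent cells, stood at 25.2, 24.0 and 21.1 CPM in BRD0705/PD03 and 1.72, 2.15 and 1.97 CPM in 2i. The BRD0705/PD03 libraries were all above those of 2i, and the fitted difference was 11.6-fold (log2 3.54 ± 0.11, adjusted p = 1.7e-15). Its gene lies on chromosome 17 (23679249 to 23682446), and 137 bases separate it from the neighbouring, oppositely oriented Cldn9. Cldn9 did not pass the filter, with 34 counts over the BRD0705/PD03 group and 18 over the 2i group, and its CPM in the 2 media overlapped.

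Cldn7, which binds EpCAM, stood at 3.14, 3.41 and 2.84 CPM in BRD0705/PD03 and 1.31, 0.818 and 0.789 CPM in 2i. The groups were apart by 3.38-fold (log2 1.76 ± 0.21, adjusted p = 5.5e-07). Epcam itself was higher by less, at 113 ± 6.04 against 75.1 ± 1.39 CPM (log2 0.59 ± 0.05). Cldn1, a barrier claudin of skin and gut, was rare, at 0.420 ± 0.0512 against 0.0198 ± 0.0197 CPM. It had 42 counts over the BRD0705/PD03 group and 2 over the 2i group, a ratio of 19.2 (exact 95% interval 5.00 to 164), which covers counting error alone. Cldn5, the claudin of blood vessel barriers, stood at 0.779 ± 0.237 against 0.350 ± 0.154 CPM (log2 1.03 ± 0.36, adjusted p = 0.0174). Its call was lost without BRD0705/PD03 replicate 2 (adjusted p = 0.109), without 2i replicate 1 (adjusted p = 0.0586) and in DESeq2 (adjusted p = 0.0694). Of 6 endothelial markers, Tek was higher (log2 1.18 ± 0.08) and Pecam1 and Kdr lower (log2 -0.88 ± 0.05 and -0.86 ± 0.18), while Cdh5, Tie1 and Emcn were below the filter, with Cdh5 at 6 counts in BRD0705/PD03 and 0 in 2i. The list summed to 76.7 to 81.9 CPM in BRD0705/PD03 and 115 to 128 CPM in 2i. Most of this sum was Pecam1, at 60.4 ± 1.81 against 111 ± 6.66 CPM, and Tek stood at 16.7 ± 1.22 against 7.35 ± 0.257 CPM. The part of the list in the Cldn5 result was not tested. Cldn20 stood at 0.740, 0.472 and 0.564 CPM in BRD0705/PD03 and 0.297, 0.279 and 0.316 CPM in 2i, with 60 counts over the BRD0705/PD03 group and 27 over the 2i group.

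Cldn3 and Cldn19 went the other way. Cldn3, a sealing claudin of many epithelia, stood at 0.462, 0.617 and 0.760 CPM in BRD0705/PD03 and 2.20, 2.49 and 2.45 CPM in 2i. All 2i libraries were above all BRD0705/PD03 libraries, by 3.85-fold (log2 -1.94 ± 0.22, adjusted p = 4.4e-07). Cldn19, known from kidney and Schwann cells, was 4.82-fold higher in 2i at 0.320 ± 0.0231 against 1.57 ± 0.183 CPM (log2 -2.27 ± 0.27). Cldn19 passed the filter through the 2i libraries, where it was higher, so these values are a description. Both genes share exon bases with a gene on the opposite strand, and those partners were scarce: Gm12927 had 2 counts in BRD0705/PD03 and 8 in 2i, and Wbscr25 had 9 and 11.

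Cldn4 and Cldn12 were abundant and differed little. Cldn4, which can be bound by a Clostridium enterotoxin, stood at 58.1, 52.4 and 52.7 CPM in BRD0705/PD03 and 60.6, 62.8 and 54.9 CPM in 2i. The groups overlapped and the gene was not called (log2 -0.13 ± 0.06, adjusted p = 0.0537), although 5 of 14 other settings called it lower. Cldn4 and Cldn3 are neighbours on chromosome 5, 39.3 kb apart with no protein-coding gene between them, yet Cldn3 was called and Cldn4 was not; the difference between the 2 changes was not tested. Cldn12, a claudin without the usual PDZ-binding end, stood at 39.6, 43.1 and 42.8 CPM in BRD0705/PD03 and 36.3, 37.8 and 36.8 CPM in 2i. The libraries did not overlap, but the difference was small at 1.13-fold (log2 0.18 ± 0.05, adjusted p = 0.00660). Cldn15, a pore-forming claudin of the gut, was not called at 0.619 ± 0.149 against 0.695 ± 0.262 CPM (log2 -0.26 ± 0.32, adjusted p = 0.507).

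To compare levels between genes, CPM was divided by the length of annotated exons in kilobases. On that scale the 23 claudins summed to 58.0 ± 2.42 against 46.7 ± 2.45 CPM per kilobase, with all BRD0705/PD03 libraries above all 2i libraries. Cldn4 made up 51.6% ± 1.37 against 70.1% ± 1.39 of the claudin total, and Cldn12 17.1% ± 1.44 against 18.8% ± 0.824. The share of Cldn6 was 23.5% ± 1.29 against 2.43% ± 0.256, and that of Cldn3 0.846% ± 0.238 against 4.05% ± 0.340. Among these 4, chosen after their values were seen, the order in BRD0705/PD03 was Cldn4, Cldn6, Cldn12 and Cldn3, and in 2i it was Cldn4, Cldn12, Cldn3 and Cldn6. The claudin total and each of these 4 shares separated the groups without overlap, at an exact two-sided permutation p of 0.1, the smallest that 3 libraries against 3 allow. Shares of 1 total are tied together, so these are not separate results, and a share is not a level. Cldn12 had the lower share in BRD0705/PD03 but the higher level, at 9.90 against 8.74 CPM per kilobase. Cldn4, which was not called, stood at 29.9 against 32.7 CPM per kilobase.

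The other 13 claudins were below the filter on low counts. Cldn2, a pore-forming claudin and the one X-linked member, had 32 counts over the BRD0705/PD03 group and 3 over the 2i group, a ratio of 9.77 (exact 95% interval 3.06 to 49.9). Its BRD0705/PD03 libraries held 12, 4 and 16 counts and its 2i libraries 2, 1 and 0. It passed the filter without BRD0705/PD03 replicate 2, or without any one of the 2i libraries, each time through the BRD0705/PD03 libraries alone. Cldn2 had to differ to be tested there, so its being called higher in these settings is a description. Cldn10 had 23 and 9 counts over the 2 groups, in the order BRD0705/PD03 and 2i, and Cldn14 5 and 14. Cldn23 had 8 and 2 counts, a ratio of 3.66 (exact 95% interval 0.731 to 35.4). Cldn18 had 4 and 1 counts, also a ratio of 3.66 (exact 95% interval 0.363 to 180). Cldn8, Cldn11, Cldn13, Cldn16 and Cldn24 had 3 counts or fewer in each group. Cldn17 and Cldn22 had 0 counts in all 6 libraries, which allows up to 0.0298 CPM in BRD0705/PD03 and 0.0325 CPM in 2i.

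**Figure D2:**
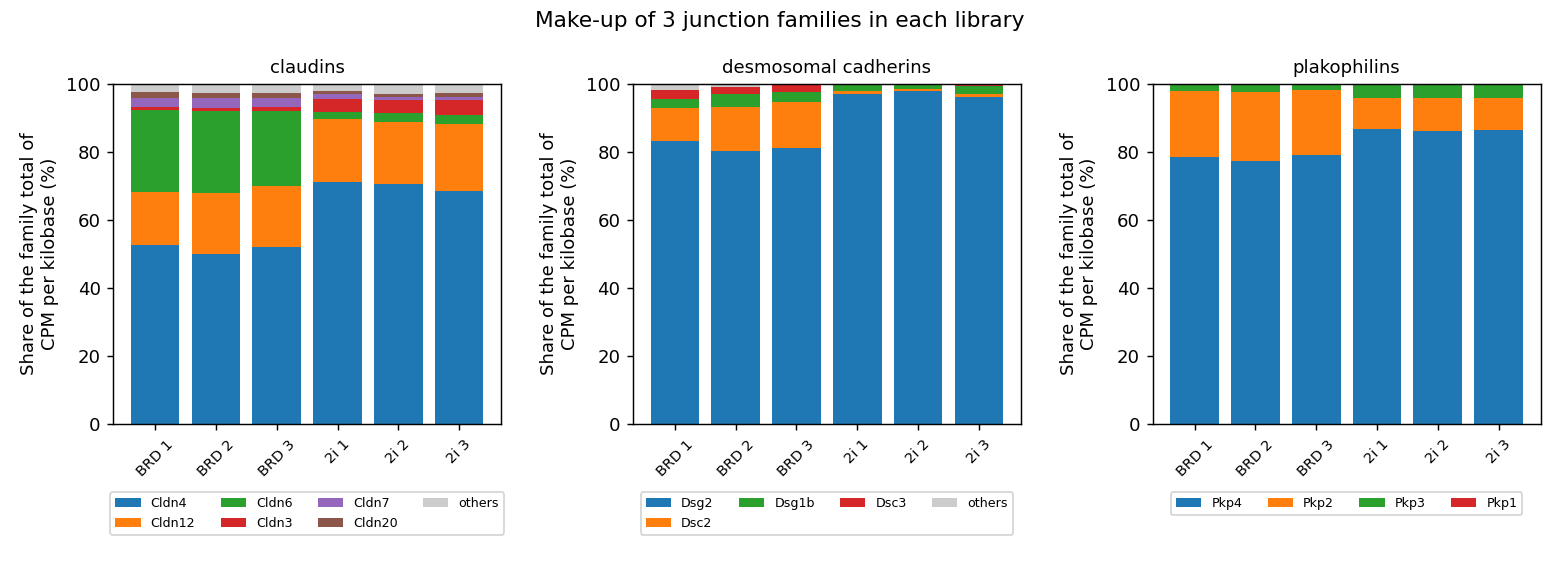
Shares of single genes in the summed CPM per kilobase of their family, in percent, for the 3 BRD0705/PD03 libraries (BRD 1 to 3) and the 3 2i libraries, for claudins, desmosomal cadherins and plakophilins. Cldn6 fills 23.5% of the claudin bar on average in BRD0705/PD03 and 2.43% in 2i, and Dsg2 fills 81.5% and 96.9% of the cadherin bar.

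Of the occludin family, Ocln was lower in BRD0705/PD03, Marveld2 was not called, and Marveld3 was let into the test by BRD0705/PD03 alone. Ocln, which encodes occludin, stood at 3.70, 4.69 and 3.90 CPM in BRD0705/PD03 and 8.55, 8.14 and 9.04 CPM in 2i. The groups were apart, with 2i 2.10-fold higher (log2 -1.07 ± 0.12, adjusted p = 1.8e-07). Marveld3 stood at 0.894, 0.654 and 0.711 CPM in BRD0705/PD03 and 0.0593, 0.160 and 0.0789 CPM in 2i, with 76 counts over the BRD0705/PD03 group and 11 over the 2i group and a fitted log2 fold change of 2.66 ± 0.42, or 3.35 without 2i replicate 2. These values are a description. Marveld2, which encodes tricellulin, the protein of corners where 3 cells meet, was not called at 2.02 ± 0.174 against 1.63 ± 0.199 CPM (log2 0.29 ± 0.19, adjusted p = 0.184). Ocln and Marveld2 lie 43.2 kb apart on chromosome 13 with no protein-coding gene between them. The angulins, partners of tricellulin, differed in direction: Lsr stood at 18.3 ± 1.17 against 2.02 ± 0.170 CPM (log2 3.15 ± 0.10) and Ildr1 at 12.1 ± 0.638 against 58.0 ± 1.67 CPM (log2 -2.25 ± 0.06).

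F11r, which encodes the immunoglobulin-like adhesion protein JAM-A, stood at 35.9, 32.4 and 35.6 CPM in BRD0705/PD03 and 23.2, 25.3 and 23.6 CPM in 2i. All its BRD0705/PD03 libraries were above those of 2i (log2 0.52 ± 0.06, adjusted p = 4.5e-07). Its relative Jam2 was far lower in BRD0705/PD03, at 34.6 ± 1.92 against 197 ± 2.43 CPM (log2 -2.51 ± 0.05, adjusted p = 1.7e-18).

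Among the cytoplasmic scaffolds of the tight junction, Tjp1, Tjp3 and the cingulin gene were higher in BRD0705/PD03, by 1.10-fold to 2.02-fold. Tjp1 (ZO-1) stood at 151, 159 and 161 CPM in BRD0705/PD03 and 141, 145 and 142 CPM in 2i, a called but small difference of 1.10-fold (log2 0.14 ± 0.04, adjusted p = 0.00680). Tjp3 (ZO-3), found mainly in epithelia, stood at 12.7, 12.2 and 13.2 CPM in BRD0705/PD03 and 8.78, 10.9 and 9.35 CPM in 2i. Every BRD0705/PD03 library was higher (log2 0.37 ± 0.09, adjusted p = 0.00148), while Apba3, which shares exon bases with it on the other strand, was lower (log2 -0.41 ± 0.06). Cgn, which encodes cingulin, stood at 23.0, 20.2 and 19.6 CPM in BRD0705/PD03 and 9.85, 9.64 and 11.7 CPM in 2i. That was a 2.02-fold difference without overlap (log2 1.01 ± 0.09, adjusted p = 1.1e-08), and its paralog Cgnl1 (paracingulin) differed by more, at 23.8 ± 0.837 against 3.96 ± 0.276 CPM (log2 2.56 ± 0.08, adjusted p = 5.2e-15).

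Of the polarity genes, Crb3, which encodes the epithelial Crumbs protein, stood at 6.19, 5.92 and 5.59 CPM in BRD0705/PD03 and 1.07, 1.88 and 1.78 CPM in 2i. BRD0705/PD03 was 3.56-fold higher (log2 1.83 ± 0.16, adjusted p = 1.4e-08). Dennd1c shares exon bases with Crb3 on the opposite strand and was also higher, by less (log2 0.45 ± 0.15, adjusted p = 0.0172), and reads of the pair cannot be separated with certainty because it is not known whether strand was used in counting. Pard3, the scaffold of the PAR complex, stood at 61.3, 60.9 and 61.9 CPM in BRD0705/PD03 and 65.3, 65.2 and 63.7 CPM in 2i. Its groups did not overlap, but the difference was small and not called (log2 -0.08 ± 0.04, adjusted p = 0.132).

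**Figure D3:**
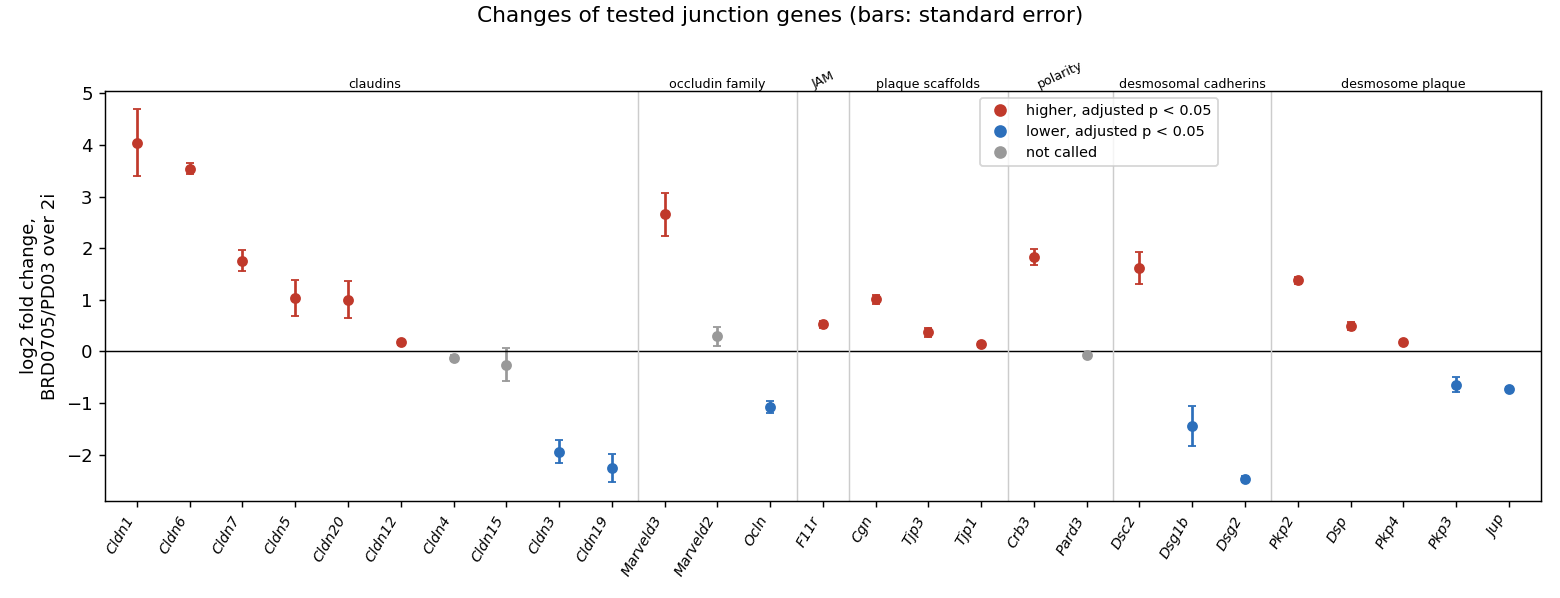
Log2 fold change of BRD0705/PD03 over 2i with its standard error for 27 of the 28 tested genes, ordered by role; red and blue mark genes called higher and lower, grey genes not called. The scaffolds Tjp1 and Pard3 sit close to 0, while the fitted values of claudins run from 4.05 (Cldn1) to -2.27 (Cldn19). Cldn1 and Cldn19 passed the filter through the medium where they were higher.

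The desmosomal cadherins included the gene with the lowest log2 fold change of the 28, Dsg2. Their 9 genes form a cluster on chromosome 18 (19960930 to 20604521), with Dsc3 and Dsg2 at its ends. Dsg2, the desmoglein of simple epithelia, stood at 12.4, 11.9 and 10.9 CPM in BRD0705/PD03 and 65.9, 66.4 and 62.9 CPM in 2i. The 2i libraries were 5.55-fold higher and far apart from the others (log2 -2.47 ± 0.06, adjusted p = 5.9e-17). Dsc2, its usual desmocollin partner, differed in the other direction, at 1.10 ± 0.152 against 0.383 ± 0.0983 CPM with 111 counts over the BRD0705/PD03 group and 32 over the 2i group (log2 1.61 ± 0.31, adjusted p = 1.5e-04). Dsc2 was above the filter's cutoff in 3 libraries of BRD0705/PD03 and 2 of 2i, a limit on that p-value. Dsg1b, let into the test by the 2i libraries alone, stood at 0.216 ± 0.0652 against 0.594 ± 0.116 CPM, which is a description. Dsg1a, Dsg1b and Dsg1c are close copies between which estimated counts are split, so this value is uncertain.

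Below the filter, Dsc3 had 22 counts over the BRD0705/PD03 group and 3 over the 2i group, a ratio of 6.72 (exact 95% interval 2.02 to 35.1). Dsg3 had 1 count in BRD0705/PD03 and 8 in 2i, a ratio of 8.73 (exact 95% interval 1.17 to 387) in favour of 2i. Both intervals cover counting error alone. Dsg1a had 7 counts in BRD0705/PD03, 6 of them in replicate 1, 1 in replicate 2 and 0 in replicate 3, and 0 in 2i, so that the groups overlapped. Dsc1, Dsg1c and Dsg4 had 2 counts or fewer in each group. Per kilobase, the 9 cadherins together stood at 1.74 ± 0.0978 against 8.12 ± 0.179 CPM per kilobase, an exact two-sided permutation p of 0.1, the smallest that 3 against 3 allows. Dsg2 made up 81.5% ± 1.39 against 96.9% ± 0.790 of this total and Dsc2 12.0% ± 2.05 against 0.895% ± 0.229, again at that smallest p for each. Shares of 1 total are tied together, so these are not separate results. Dsc2 itself stood at 0.208 against 0.0726 CPM per kilobase, so its share differed by more than its level. The share of Dsg1b was higher in BRD0705/PD03, at 3.10% ± 0.841 against 1.85% ± 0.399, although its level was lower.

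Plaque genes of the desmosome were split as well, with 3 of 5 tested genes higher and 2 lower. Jup, which encodes plakoglobin, a component of both desmosomes and adherens junctions, stood at 94.7, 94.2 and 93.9 CPM in BRD0705/PD03 and 159, 157 and 151 CPM in 2i. It was lower in every BRD0705/PD03 library (log2 -0.72 ± 0.04, adjusted p = 1.0e-11), while the gene of its relative beta-catenin, Ctnnb1, differed by 0.10 ± 0.04 on the log2 scale. Pkp2, the plakophilin of heart and simple epithelia, stood at 35.3, 37.4 and 34.7 CPM in BRD0705/PD03 and 13.1, 14.0 and 14.0 CPM in 2i. It was 2.60-fold higher in BRD0705/PD03 (log2 1.38 ± 0.06, adjusted p = 5.7e-13), the reverse of Dsg2 and Jup. Pkp3 stood at 2.68, 2.87 and 2.35 CPM in BRD0705/PD03 and 4.21, 3.99 and 4.10 CPM in 2i, lower in each BRD0705/PD03 library (log2 -0.64 ± 0.14, adjusted p = 8.0e-04).

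Pkp4, a p120-catenin relative and the most abundant plakophilin, stood at 152, 152 and 155 CPM in BRD0705/PD03 and 135, 132 and 136 CPM in 2i, a small difference without overlap (log2 0.19 ± 0.04, adjusted p = 2.8e-04). Dsp, the desmoplakin gene, whose product links the plaque to intermediate filaments, stood at 14.7, 15.1 and 15.1 CPM in BRD0705/PD03 and 11.2, 9.89 and 11.2 CPM in 2i. It was 1.40-fold higher in BRD0705/PD03 (log2 0.49 ± 0.08, adjusted p = 2.8e-05). Pkp1, a plakophilin of stratified epithelia, was below the filter with 11 counts over the BRD0705/PD03 group and 3 over the 2i group, a ratio of 3.36 (exact 95% interval 0.887 to 18.8). Of the plakophilin total per kilobase, Pkp2 made up 19.5% ± 0.680 against 9.40% ± 0.396 and Pkp4 78.3% ± 0.841 against 86.4% ± 0.306, both at the exact permutation p of 0.1. These shares are tied as well, and Pkp4 had the lower share in BRD0705/PD03 although its own level was higher.

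Per kilobase, Cldn4, Pkp4, Tjp1 and Jup were among the 5 highest of the 48 genes in both media, with Jup ahead of Pkp4 and Tjp1 in 2i. Jup stood at 14.6 against 24.2 CPM per kilobase, and Pkp4 at 26.8 against 23.5 CPM per kilobase. Cldn6 ranked 6 in BRD0705/PD03 and 16 in 2i, at 13.6 against 1.13 CPM per kilobase. Dsg2 ranked 16 and 8, at 1.42 against 7.87 CPM per kilobase.

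Related genes were read from lists set by function, and their counts stand beside 30.1% higher and 31.4% lower over all tested genes. Of 26 tested further genes of tight junctions, polarity and scaffolding, 10 were higher and 10 lower, with a median log2 fold change of 0.07. Beside Jam2, Ildr1, Lsr and Cgnl1, these included Mpdz, a multi-PDZ scaffold (log2 1.56 ± 0.07), and Patj, a scaffold of the Crumbs complex (log2 1.68 ± 0.09), both named after their values were seen. Of 11 tested desmosome, plakin and filament genes, 5 were higher and 2 lower (median 0.15). The keratin genes Krt8 and Krt18, whose filaments anchor desmosomes in simple epithelia, stood at 6.83 ± 0.980 against 0.779 ± 0.116 CPM and 7.03 ± 1.19 against 1.10 ± 0.0940 CPM. Evpl, which encodes envoplakin, differed by 1.46 ± 0.14 on the log2 scale, and Vim, the filament gene of mesenchymal cells and also of fibroblasts, by 0.61 ± 0.05. Fibroblast marker sums moved in the same direction as Vim, and their part in it was not tested.

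Of 12 adherens junction genes, 9 were higher and 2 lower, and 0 reached 2-fold, which 10.9% (higher) and 10.3% (lower) of all tested genes did (median 0.25). Cdh1, which encodes E-cadherin and was named after its value was seen, as was Ctnnb1 above, stood at 242 ± 3.23 against 214 ± 5.25 CPM (log2 0.17 ± 0.04), and Vcl (vinculin) and Cdh2 (N-cadherin) differed by 0.80 ± 0.04 and 0.89 ± 0.06. Nectin2, a nectin that binds afadin, differed by 0.56 ± 0.05. Of the 5 serine proteases and inhibitors that act at junctions, 2 were higher and 2 lower. St14, which encodes matriptase, was lower at 37.6 ± 2.98 against 90.7 ± 1.77 CPM (log2 -1.27 ± 0.05), as was its inhibitor gene Spint1 (log2 -1.44 ± 0.06), whereas the partner protease gene Prss8 was higher (log2 1.07 ± 0.13) and Spint2 differed by 0.26 ± 0.06.

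Of 19 tested regulators of epithelial genes, 8 were higher and 9 lower (median -0.05), against 30.1% and 31.4% of all tested genes. Hnf4a, 1 of the lower genes, was let in by the 2i libraries alone. Esrp1, a splicing factor of epithelial isoforms, stood at 56.5, 56.7 and 56.7 CPM in BRD0705/PD03 and 1.13, 0.798 and 0.750 CPM in 2i. The groups were 66.5-fold apart (log2 6.06 ± 0.09, adjusted p = 1.3e-19), beyond the change of any of the 28 junction genes, while its paralog Esrp2, named after its value was seen, was lower by a small margin (log2 -0.32 ± 0.12). Grhl3, a grainyhead factor of surface epithelia, was lower at 9.31 ± 0.277 against 21.7 ± 0.560 CPM (log2 -1.22 ± 0.07), and Grhl2, named after its value was seen, was higher at 36.9 ± 2.63 against 21.0 ± 1.19 CPM (log2 0.82 ± 0.07). Elf3, an epithelial ETS factor, was lower (log2 -1.88 ± 0.06). Zeb2, a repressor of epithelial genes, was higher at 22.3 ± 3.23 against 6.99 ± 0.369 CPM (log2 1.69 ± 0.11), and is also expressed by fibroblasts, whose markers were higher in the same libraries; their part in it was not tested.

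**Figure D4:**
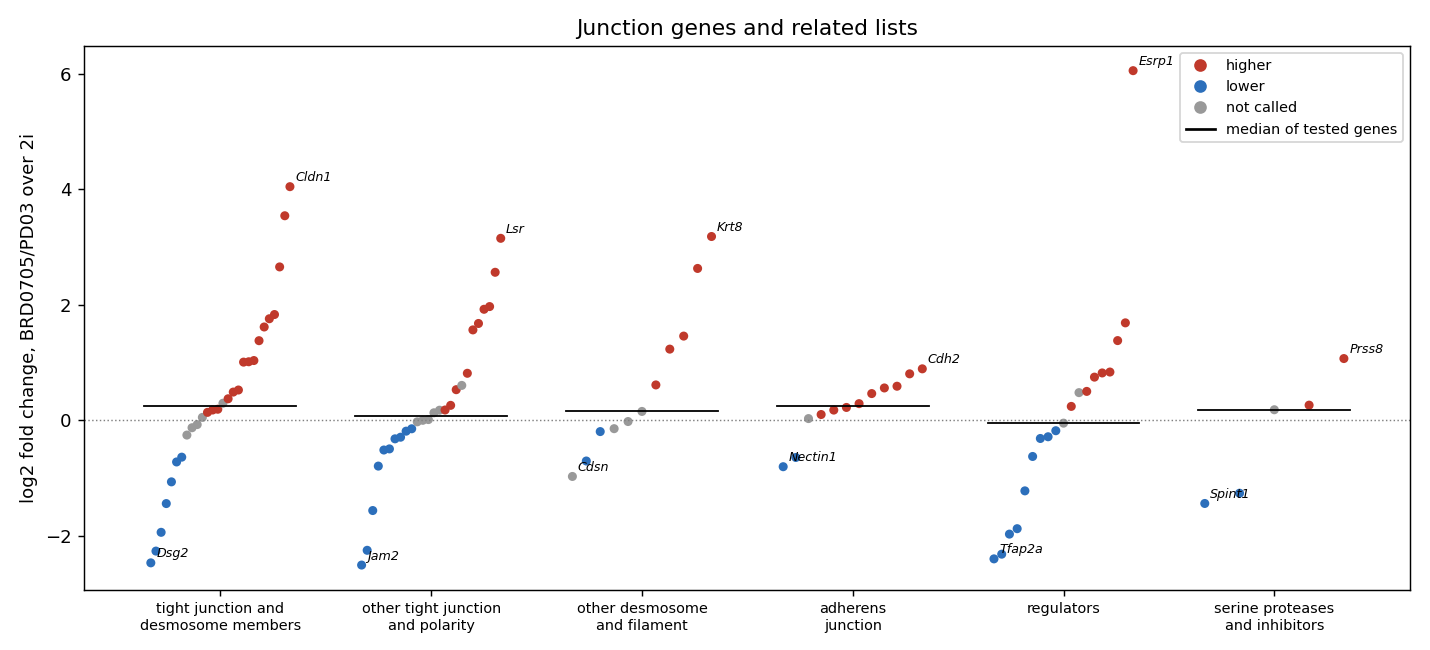
Log2 fold change of BRD0705/PD03 over 2i for each tested gene of the junction set and of 5 related lists, with a black line at the median of each and colours for the call. Lists spread to both sides of 0, adherens junction genes stay within 1 of it, and Esrp1 stands alone at 6.06.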

How the data were processed

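The deposited tables hold whole numbers per gene symbol; the submitters' processing notes name Salmon and the build mm10, so they were read as estimated counts that the authors had rounded and not scaled. The annotation, strand use and gene summing are not given in the sources. Groups and replicate numbers came from the titles. edgeR 4.0.16 (R 4.3.3) was run with filterByExpr, TMM scaling and the robust quasi-likelihood test, two-sided, on all 6 libraries, by group alone. P-values were adjusted by Benjamini-Hochberg across 20422 genes and called below 0.05. Errors of CPM are SD with n = 3, those of log2 fold changes standard errors. The steps were tested on simulated data. No pair of replicates matched within sampling noise (chi-square per degree of freedom 2.77 to 9.84).

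Exon lengths and coordinates are from GENCODE M21 (GRCm38), in which all 48 symbols matched 1 gene. Ratios with 1 to 3 counts in a group have exact 95% intervals from counts pooled over the libraries of each group. These intervals cover counting error alone and not the spread between libraries. Genes, lists and tests were chosen with earlier results of these data known. The naming rule took every member (1 tested gene, included in the counts, is not reported here), up to 4 called genes of each related list with the smallest p, and promoters of up to 3 called members with a mean of at least 5 CPM. Pkp2 met it but has no promoter entry, so Cgn is shown. The marking of CG was added after the values were seen. Alternatives were DESeq2 1.42.0, other factors and filters, a replicate block, leaving out each library, thinning, and omission of X and Y genes. Sets of marker genes for trophectoderm and primitive endoderm summed to 48.8 to 51.4 and 5.21 to 5.89 CPM in BRD0705/PD03 and 42.3 to 48.4 and 4.67 to 5.16 CPM in 2i. Of 5 tested trophectoderm markers, 2 were higher, Eomes and Tfap2c. Tfap2c was most of the sum, at 42.9 ± 1.13 against 36.4 ± 2.39 CPM. Gata3 was lower, at 0.390 ± 0.202 against 3.29 ± 0.394 CPM. Of 5 tested primitive endoderm markers, Pdgfra and Foxa2 were higher, Foxa2 let in by BRD0705/PD03 alone, and Gata4 was lower.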

Additional observations from a re-analysis of the deposited data

How the results depend on the processing

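Over 14 other settings, 11 to 19 junction genes were called higher and 5 to 8 lower. With a mean of at least 1 CPM, 7 of the 23 called genes were not tested, and 11 were higher and 5 lower. Thinning to 16968959 counts removed 4 (Cldn1, Cldn5, Cldn20 and Dsg1b). Without a filter 19 were higher, adding Cldn2, Dsc3 and Dsg1a. Calls lost among tested genes were those of Cldn5 and Cldn20. Cldn15, not called, changed sign without 2i replicate 2 (log2 0.21) and ran from -0.43 to 0.21 as libraries were left out. Cldn4 was called lower with the replicate block (-0.13, adjusted p = 0.0353), without BRD0705/PD03 replicate 1 (-0.18), without 2i replicate 3 (-0.18), with thinning (-0.15) and without X and Y genes (-0.14). Over all genes, 5483 to 7047 were higher and 5492 to 6719 lower, and upper-quartile factors gave 6967 and 5689.

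Replicate numbers did not pair the libraries: same-numbered deviations correlated at -0.04 to 0.03. With the replicate block 16 junction genes were higher and 8 lower. The length of the longest transcript was tried after seeing the data. Shares per kilobase of Cldn4, Cldn6 and Dsc2 moved by less than 1 SD with it, and differences were -12.5 points for Dsg2, 13.1 for Pkp2 and -11.1 for Pkp4, against -15.4, 10.1 and -8.11.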

Other observations

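The immunoglobulin-like adhesion genes near the junction set were also uneven. Jam3, a partner of Jam2, was lower in BRD0705/PD03 at 17.9 ± 0.832 against 30.9 ± 1.86 CPM (log2 -0.80 ± 0.06, adjusted p = 3.0e-09), and Cxadr, the coxsackievirus and adenovirus receptor gene, was lower by a small margin (log2 -0.15 ± 0.05, adjusted p = 0.0215). Ildr2, the remaining angulin gene, was higher at 4.26 ± 0.598 against 1.16 ± 0.196 CPM (log2 1.92 ± 0.19, adjusted p = 4.3e-08). The X-linked Amot, an angiomotin that binds polarity scaffolds, was higher at 12.1 ± 0.149 against 3.14 ± 0.221 CPM (log2 1.97 ± 0.10), whereas its relatives Amotl1 and Amotl2 were lower (log2 -0.52 ± 0.05 and -0.50 ± 0.04). In the PAR complex, Pard6g was lower at 9.57 ± 0.233 against 28.3 ± 0.599 CPM (log2 -1.57 ± 0.07) and Pard6b higher by a small margin (log2 0.26 ± 0.07). The nectin genes Nectin1 and Nectin3 were lower and higher, at -0.81 ± 0.10 and 0.46 ± 0.05. All were picked once their values were known. Ovol1, an epithelial zinc finger gene, had 34 counts in BRD0705/PD03 and 0 in 2i, and did not pass the filter.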
